A study of Homo sapiens with 60 samples.

Results

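The 37 genes of the human mitochondrial genome were followed in HepG2 cells, a human hepatocellular carcinoma line, after 24 h with 8 herbal extracts. They were chosen as every entry of the count table whose Ensembl identifier maps to a symbol beginning with MT-, 37 of 60675 genes. They are 2 ribosomal RNA (rRNA) genes, 13 mRNA genes and 22 tRNA genes. Of the mRNA genes, 12 are annotated on the plus strand of chromosome M and are called heavy-strand mRNAs here, and 1, MT-ND6, lies on the minus strand and is the light-strand mRNA. The tRNA genes comprise 14 heavy-strand and 8 light-strand genes. This rule uses no measured value, but earlier results of these data were known when it was chosen.

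The data are 60 mRNA sequencing libraries in 25 groups. All cells were unmodified HepG2, and all treated cells received an ethanol extract. Coptidis Rhizoma, the rhizome of Coptis and a source of the alkaloid berberine, and Bupleuri Radix, the root of Bupleurum, were given at 11.2, 56 and 280 µg/mL. The highest of these is the IC20 of that extract under the dose rule of the series, where IC20 is a concentration of partial inhibition. Zizyphi Fructus (jujube fruit), Citri Unshius Pericarpium (mandarin peel), Cimicifugae Rhizoma (Cimicifuga rhizome), Aconiti Lateralis Radix Preparata (processed aconite root) and the mixed formulas Yijung-tang and Banhasasim-tang were given at 20, 100 and 500 µg/mL. The 3 concentrations of each extract are called low, medium and high dose. Each dose had 2 libraries for Coptidis, Zizyphi and Yijung-tang, 1 for Banhasasim-tang and 3 for each other extract. Vehicle cells received DMSO and had 3 libraries; the sample labels and the series text give different DMSO percentages. Samples that gave too little RNA were dropped by the submitters.

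Sample titles carry a set number. Coptidis and Zizyphi share set 11, Citri and Cimicifugae set 12, Bupleuri and Aconiti set 13, and both formulas set 14, while vehicle has a set of its own. For the Coptidis and Zizyphi samples the titles name the batch of the vehicle and the descriptions name another batch, and the titles were used here. Set and treatment therefore cannot be told apart in any comparison with vehicle, and comparisons within a set are given beside them. The labels do not say whether replicates were separate cultures, so p-values measure the spread between libraries, which may be technical. Library totals ran between 18015555 and 29549531 counts. Of 9 hepatocyte markers, ALB stood at 7347 to 12006 CPM, a count scaled to a common library size, and TTR was the lowest at 14 to 69.5 CPM. Of 8 markers of other cells, PTPRC was at 0 in every library and COL1A2 at 0.0435 CPM or less, while LYZ stood at 516 to 1653 CPM, CD68 at 20.1 to 79.8 CPM and ACTA2 at 28.8 to 63.1 CPM. Both Coptidis high libraries stood low in the sum of the hepatocyte markers, at 27496 and 26643 CPM, against 43367 to 44099 CPM in vehicle. They also stood low in the sum of the other markers, which is mostly LYZ, at 708 to 764 CPM, against 1433 to 1450 CPM in vehicle. Of 6 other markers tested against vehicle, 2 were higher and 2 lower at Coptidis high, near the 34.5% and 33% of all genes. The Banhasasim-tang low library held 596 CPM of the other markers. One library, Bupleuri low replicate 3, stood apart from its group.

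The human mitochondrial genome is a small circle transcribed from both strands as long precursors, which are cut mainly at the tRNAs that punctuate them. Transcription of the heavy strand starts just before the rRNA genes, passes through both rRNAs and then the mRNAs from MT-ND1 to MT-CYB, and the products differ widely in abundance because of differences in processing and stability. Mitochondrial rRNA is built into the mitochondrial ribosome, and the 13 mRNA genes encode membrane subunits of respiratory complexes I, III and IV and of ATP synthase. In liver cells these complexes carry most oxidative ATP production.

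The tRNA genes measure 59 to 75 bases, and reads were 100 bases long. One of them is printed because it lies on the heavy-strand precursor exactly where rRNA ends and mRNA begins. MT-TL1, tRNA leucine, occupies chrM:3230-3304 (GRCh38, plus strand, 75 bases), directly after MT-RNR2 (chrM:1671-3229). The other sequences are shown because neighbouring mRNA genes share bases, so that counts of such neighbours are not independent and need not be those of separate RNAs. MT-ATP8 (chrM:8366-8572, plus strand) shares its last 46 bases, in capitals, with the start of MT-ATP6. MT-ND4L shares its last 7 bases, in capitals within its final 40 bases (chrM:10727-10766, plus strand), with the start of MT-ND4. All are from the GENCODE 29 transcripts, 5′ to 3′.
MT-TL1: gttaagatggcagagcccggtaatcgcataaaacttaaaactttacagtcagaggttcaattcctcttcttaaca
MT-ATP8: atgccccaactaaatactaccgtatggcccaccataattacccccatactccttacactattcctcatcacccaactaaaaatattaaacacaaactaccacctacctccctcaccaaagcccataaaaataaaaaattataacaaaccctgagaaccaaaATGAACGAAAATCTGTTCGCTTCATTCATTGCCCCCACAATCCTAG
MT-ND4L: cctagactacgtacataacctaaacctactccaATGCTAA

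The 22 tRNA genes collected 55 counts over all 60 libraries. Of them 13 had no count, 9 had at least 1, and no library held more than 5 tRNA counts in all. No tRNA gene averaged above 0.01 CPM. A count of 0 allows up to 3 counts, which is 0.167 CPM in the smallest library and 0.102 CPM in the largest, for counting error only. Differences in tRNA were not detectable in these mRNA libraries, and all 22 failed the filter on low counts. The 15 rRNA and mRNA genes passed it and were tested.

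Among these 15 genes the 16S rRNA, MT-RNR2, was the most abundant RNA per length in vehicle cells, at 13254 ± 507 CPM per kilobase (SD, n = 3 here and for the other vehicle levels). MT-CO3, MT-CO2 and MT-CO1, the mitochondrial subunits of complex IV, came next at 11067 ± 596, 10443 ± 611 and 9766 ± 762 CPM per kilobase. These neighbours did not differ beyond their spread. MT-ND4, a complex I subunit, stood at 8159 ± 906 and MT-ATP6, an ATP synthase subunit, at 7699 ± 481 CPM per kilobase, again within their spread of each other. The complex I mRNA MT-ND3 followed at 6272 ± 473 CPM per kilobase.

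A middle group held MT-CYB, the only mitochondrial subunit of complex III, at 5166 ± 424 CPM per kilobase, and the complex I mRNAs MT-ND1 at 5123 ± 685, MT-ND4L at 4876 ± 236 and MT-ND2 at 4770 ± 417 CPM per kilobase. The 12S rRNA, MT-RNR1, lay among them at 4599 ± 204 CPM per kilobase, below the 16S rRNA although both belong to the same ribosome. The lowest levels were those of MT-ND5 at 2161 ± 96.4, MT-ATP8 at 1884 ± 112 and the light-strand mRNA MT-ND6 at 954 ± 68.1 CPM per kilobase. MT-ATP8 is 207 bases long and overlaps MT-ATP6, so reads of these genes may not be fully separated. The library kit captures mRNA, so the rRNA levels are those of rRNA that entered an mRNA library. In bulk cells, fewer cells of a kind and less RNA per cell cannot be told apart.

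As a share of all counts, mitochondrial rRNA made up 2.47% to 2.61% of vehicle libraries and the 12 heavy-strand mRNAs 6.60% to 7.44%. In the Coptidis libraries rRNA reached 11.8% and 11.6% at low dose, 10.2% and 11.5% at medium dose, and 5.41% and 5.68% at high dose. The heavy-strand mRNAs made up 4.02% and 4.20% of counts at low dose, 4.25% and 4.02% at medium dose, and 4.29% and 4.16% at high dose. No Coptidis library overlapped vehicle in either class. The ratio of rRNA to heavy-strand mRNA was 2.93 and 2.75 in Coptidis low and 1.26 and 1.36 in Coptidis high libraries, against 0.335 to 0.374 in vehicle.

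**Figure D1:**
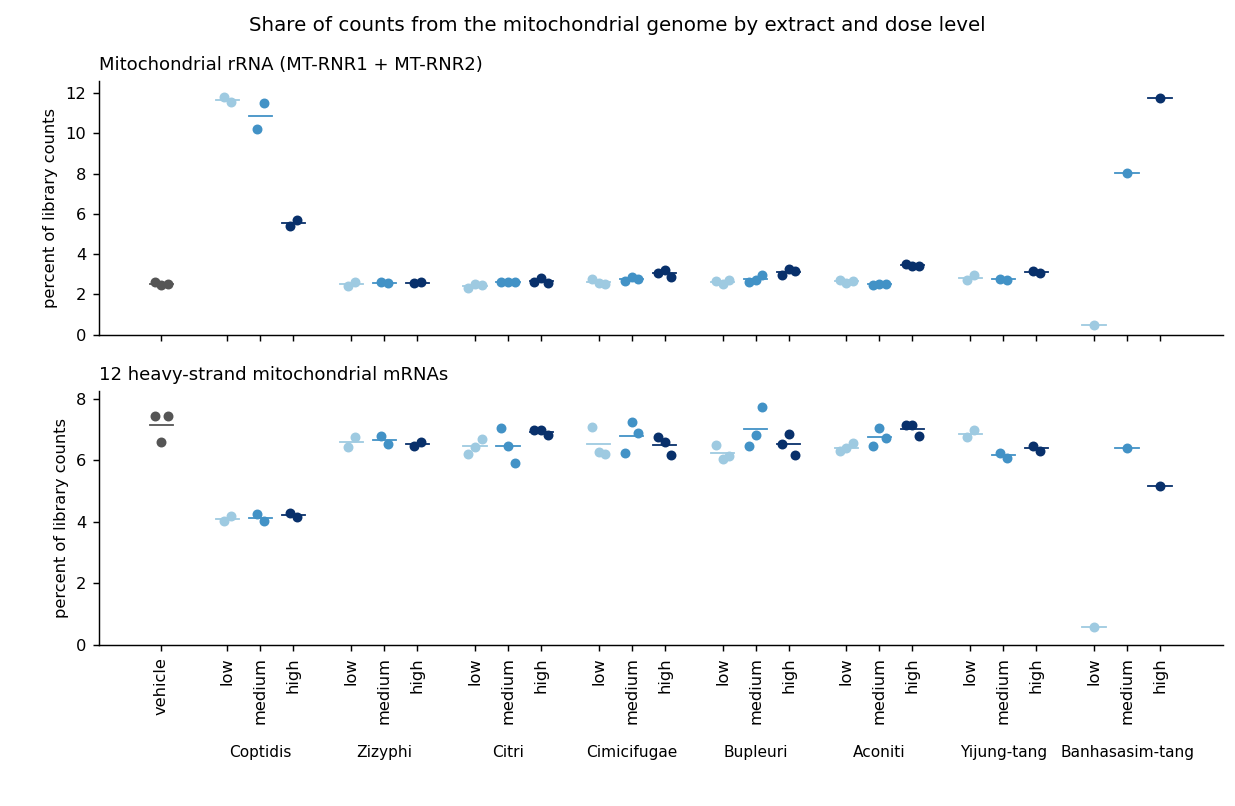
Percent of library counts from the 2 mitochondrial rRNAs (upper panel) and from the 12 heavy-strand mRNAs (lower panel) in all 60 libraries, by extract and dose level; points are libraries and lines are group means. Coptidis libraries lie at 5.41% to 11.8% rRNA, against 2.47% to 2.61% in vehicle, and the Banhasasim-tang library at high dose also lies at 11.8%.

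Both rRNAs were higher with Coptidis at every dose. The 12S rRNA MT-RNR1 stood at 4166 to 4533 CPM in vehicle, at 44133 and 44891 CPM in Coptidis low, at 37317 and 42502 CPM in Coptidis medium and at 17838 and 19602 CPM in Coptidis high libraries. All CPM values of single genes are scaled for library size and composition by TMM. Every Coptidis library was above every vehicle library, and the high dose stood below both lower doses. Over vehicle this was 10.2-fold at low dose (log2 fold change 3.35 ± 0.09, SE; edgeR quasi-likelihood test, Benjamini-Hochberg adjusted p = 5.6e-29), 9.15-fold at medium dose (3.19 ± 0.09, edgeR adjusted p = 1.9e-29) and 4.27-fold at high dose (2.10 ± 0.09, edgeR adjusted p = 3.8e-24).

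The 16S rRNA MT-RNR2 stood at 19862 to 21444 CPM in vehicle, 82473 and 80154 CPM in Coptidis low, 70575 and 81467 CPM in Coptidis medium, and 39910 and 41654 CPM in Coptidis high libraries. The groups did not overlap with vehicle, and the order of doses was that of MT-RNR1. The rise was 3.95-fold, 3.70-fold and 1.98-fold at low, medium and high dose, each with an edgeR adjusted p of 5.4e-19 or less. The ratio of MT-RNR1 to MT-RNR2 counts was 0.447 to 0.560 in the 6 Coptidis libraries, against 0.201 to 0.225 in vehicle, so the 12S rRNA rose more than the 16S rRNA.

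Among the 15 tested members, Coptidis low had 2 higher and 9 lower than vehicle, beside 17.1% of all 16675 tested genes called higher and 16.1% called lower. Coptidis medium had 2 higher and 11 lower, beside 26.1% and 24.6% of all genes. Coptidis high had 2 higher and 12 lower, beside 34.5% and 33% of all genes. The members called higher were both rRNAs at every dose.

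The heavy-strand mRNAs fell with Coptidis to different extents along the genome. At low dose the 8 that fell were the contiguous run from MT-CO1 to MT-ND4. The genes on both sides of that run, MT-ND1 and MT-ND2 before it and MT-ND5 and MT-CYB after it, did not pass the test at log2 fold changes of 0.24, -0.08, -0.10 and -0.05. At medium dose 10 fell, and at high dose all 12 fell. The median log2 fold change of the 12 was -0.99 at low, -0.80 at medium and -0.65 at high dose.

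**Figure D2:**
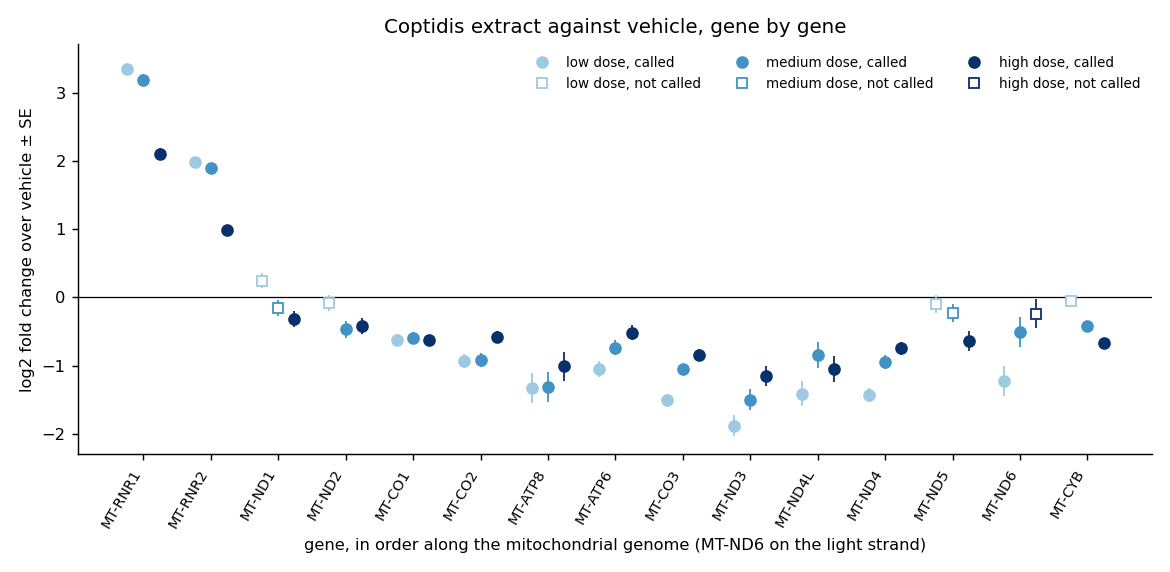
Log2 fold change of the 15 tested mitochondrial genes in Coptidis-treated cells over vehicle, with SE bars, in their order along the genome and by dose; filled circles passed an adjusted p of 0.05 and open squares did not. The low dose runs between 3.35 at MT-RNR1 and -1.88 at MT-ND3 and is near 0 at MT-ND5 and MT-CYB.

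MT-ND3 was the mRNA with the deepest fall. It stood at 1984 to 2290 CPM in vehicle, at 599 and 573 CPM in Coptidis low, 595 and 931 CPM in Coptidis medium, and 909 and 1038 CPM in Coptidis high libraries. All Coptidis libraries lay below all vehicle libraries, with the low dose lowest. The fall was 3.69-fold at low dose (log2 fold change -1.88 ± 0.15, edgeR adjusted p = 2.7e-12), 2.83-fold at medium dose (-1.50 ± 0.15, edgeR adjusted p = 4.8e-11) and 2.23-fold at high dose (-1.15 ± 0.15, edgeR adjusted p = 8.0e-09).

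The complex IV mRNAs fell at every dose. MT-CO3 stood at 8321 to 9205 CPM in vehicle, 2816 and 3313 CPM in Coptidis low, 3843 and 4471 CPM in Coptidis medium, and 4767 and 4883 CPM in Coptidis high libraries. Its log2 fold change was -1.50 ± 0.09, -1.05 ± 0.08 and -0.84 ± 0.08 at low, medium and high dose, with edgeR adjusted p of 4.3e-12 or less. MT-CO2 fell by 0.93, 0.92 and 0.58 on the log2 scale at these doses. MT-CO1, the first of the complex IV genes on the precursor, fell by 0.62, 0.59 and 0.63, nearly the same at each dose, and stood at 9595 to 10296 CPM in the 6 Coptidis libraries, against 13757 to 16041 CPM in vehicle.

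Among complex I mRNAs, MT-ND4 fell by 1.43, 0.95 and 0.75 on the log2 scale at low, medium and high dose, and its neighbour MT-ND4L, which shares the 7 bases printed above, by 1.41, 0.85 and 1.05. MT-ND4 stood at 3971 and 4327 CPM in Coptidis low libraries, against 9854 to 12273 CPM in vehicle. The ATP synthase genes MT-ATP8 and MT-ATP6, which share 46 bases, fell by 1.33 and 1.05 at low dose, 1.31 and 0.74 at medium dose, and 1.01 and 0.52 at high dose.

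The genes outside the run behaved differently. MT-CYB stood at 5340 to 6235 CPM in vehicle, 5709 and 5609 CPM in Coptidis low, 4078 and 4690 CPM in Coptidis medium, and 3766 and 3644 CPM in Coptidis high libraries. The low dose lay inside the vehicle range and both higher doses lay below it. MT-CYB did not pass the test at low dose (log2 fold change -0.05 ± 0.08, edgeR adjusted p = 0.666), and it fell at medium dose (-0.42 ± 0.08, edgeR adjusted p = 4.1e-05) and at high dose (-0.67 ± 0.08, edgeR adjusted p = 2.4e-09). Against Zizyphi medium, of the same title set, the medium dose did not pass (-0.12 ± 0.09, edgeR adjusted p = 0.284).

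MT-ND5 stood at 3714 to 4031 CPM in vehicle, 3720 and 3554 CPM in Coptidis low, 3221 and 3431 CPM in Coptidis medium, and 2571 and 2460 CPM in Coptidis high libraries. It fell at high dose (log2 fold change -0.64 ± 0.14, edgeR adjusted p = 7.5e-05) and did not pass at low dose (-0.10, edgeR adjusted p = 0.61) or medium dose (-0.23, edgeR adjusted p = 0.159). The ratio of MT-CYB to MT-CO3 counts was 0.642 to 0.733 in vehicle, 2.03 and 1.69 in Coptidis low, 1.06 and 1.05 in Coptidis medium and 0.790 and 0.746 in Coptidis high libraries.

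MT-ND1 and MT-ND2, the first mRNAs after the rRNAs, had the smallest changes of the 12 at high dose. MT-ND2 fell by 0.47 at medium and 0.42 at high dose on the log2 scale. MT-ND1 fell by 0.32 at high dose (edgeR adjusted p = 0.0153). That call was lost without vehicle replicate 3 (adjusted p = 0.103), without Coptidis high replicate 2 (0.0558) and without Coptidis high replicate 3 (0.0685).

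The light-strand mRNA MT-ND6, a complex I subunit, stood at 467 to 538 CPM in vehicle, 203 and 222 CPM in Coptidis low, 332 and 369 CPM in Coptidis medium, and 370 and 475 CPM in Coptidis high libraries. The low and medium doses lay below vehicle, and the high dose overlapped it. MT-ND6 fell 2.35-fold at low dose (log2 fold change -1.23 ± 0.22, edgeR adjusted p = 3.6e-05) and did not pass at high dose (-0.24 ± 0.21, edgeR adjusted p = 0.322). The medium dose value of -0.51 ± 0.22 passed narrowly (edgeR adjusted p = 0.0486). It did not pass without vehicle replicate 1 (0.119), vehicle replicate 2 (0.0519), vehicle replicate 3 (0.0732), Coptidis medium replicate 2 (0.234) or Coptidis medium replicate 3 (0.0858). It also did not pass in edgeR with RLE in place of TMM scaling (0.0502). MT-ND6 lies opposite the heavy-strand precursor, and whether counting used strand is a setting the sources used here do not name, so reads of the 2 strands may not be fully separated.

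**Figure D3:**
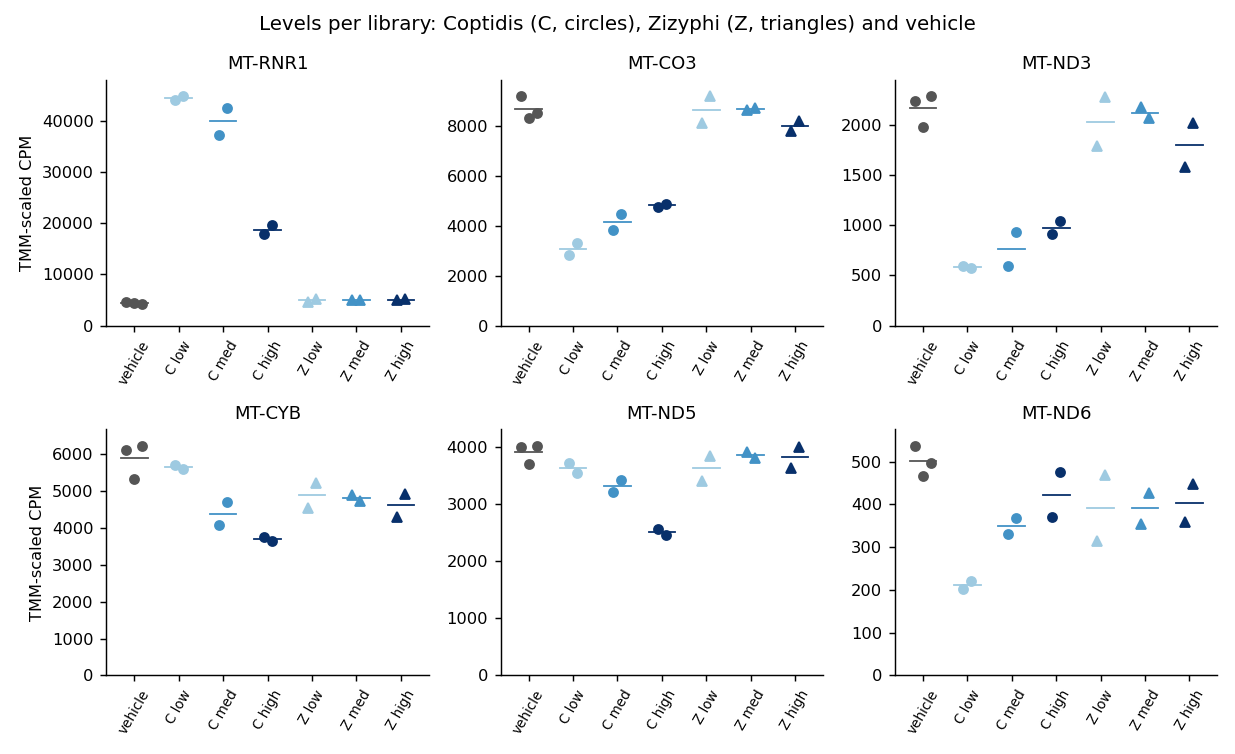
TMM-scaled CPM of MT-RNR1, MT-CO3, MT-ND3, MT-CYB, MT-ND5 and MT-ND6 in each vehicle, Coptidis (C) and Zizyphi (Z) library, with group means as lines. MT-RNR1 lies at 17838 to 44891 CPM in Coptidis libraries and MT-CYB of the low dose lies inside the vehicle range of 5340 to 6235 CPM.

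Comparing Coptidis high with Coptidis low uses 1 title set and no vehicle library. Of the 15 members, 12 passed: 6 lower, beside 29.3% of all genes, and 6 higher, beside 30.9%. The lower ones were both rRNAs, of which MT-RNR1 fell by 1.25 ± 0.10 and MT-RNR2 fell by 1.00 ± 0.07 (log2 fold change; edgeR adjusted p = 1.8e-14 and 2.8e-17), and the 4 mRNAs outside the central run, MT-CYB at -0.61, MT-ND1 at -0.55, MT-ND5 at -0.53 and MT-ND2 at -0.34. The higher ones were MT-ND6 at 0.99 ± 0.24, MT-ND3 at 0.73, MT-ND4 at 0.68, MT-CO3 at 0.65, MT-ATP6 at 0.53 and MT-CO2 at 0.35. MT-CO1, MT-ATP8 and MT-ND4L did not pass at -0.01, 0.33 and 0.36. The call of MT-CO2 was lost without Coptidis low replicate 2 (adjusted p = 0.0651), and that of MT-ND2 without Coptidis high replicate 2 (0.0848), Coptidis high replicate 3 (0.0503) or Coptidis low replicate 3 (0.073).

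Zizyphi, of the same title set, gives a second comparison without vehicle, at unlike concentrations (11.2 against 20, 56 against 100 and 280 against 500 µg/mL). MT-RNR1 stood at 17838 and 19602 CPM in Coptidis high, against 4944 and 5129 CPM in Zizyphi high libraries, a log2 fold change of 1.90 ± 0.10 (edgeR adjusted p = 1.9e-20). At low and medium dose it was 3.17 ± 0.11 and 3.00 ± 0.11 higher than in Zizyphi on the log2 scale, and MT-RNR2 2.04, 1.89 and 1.00 higher at low, medium and high dose. Members called in Coptidis against Zizyphi were 2 higher and 9 lower at low dose, beside 9.19% and 7.28% of all genes. They were 2 higher and 9 lower at medium dose, beside 23.2% and 21.4%, and 2 higher and 12 lower at high dose, beside 33% and 31.4%.

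MT-ND3 was again the deepest fall at the lower doses, at -1.79 ± 0.16 for low and -1.47 ± 0.16 for medium dose, and MT-ND4L at the high dose, at -1.34 ± 0.20. MT-CYB and MT-ND5 did not pass at low dose, at log2 fold changes of 0.22 and 0.01. At medium dose MT-CYB at -0.12, MT-ND1 at -0.13 and MT-ND5 at -0.21 did not pass (edgeR adjusted p = 0.284, 0.415 and 0.262). MT-ND6 did not pass at medium dose either, at -0.15 (edgeR adjusted p = 0.646). Single libraries decided some calls at high dose: MT-CYB and MT-ATP8 were lost without Zizyphi high replicate 3 (adjusted p = 0.0612 and 0.085). MT-ATP6 was lost without Coptidis high replicate 2 (0.0593) or Zizyphi high replicate 2 (0.0649). MT-ND1 was lost without Zizyphi high replicate 3 (0.181), Coptidis high replicate 2 (0.0956) or Coptidis high replicate 3 (0.114). At low dose MT-ND6 was lost without Zizyphi low replicate 3, where its value moved to -0.56 against -0.88 (0.259), or without Coptidis low replicate 2 (0.0701). MT-ATP8 at low dose was lost without Coptidis low replicate 3 (0.179) or Zizyphi low replicate 3 (0.147).

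The high-over-low effect of Coptidis less that of Zizyphi, a contrast added after the values were seen, passed for 11 members, 6 higher beside 24.8% of all genes and 5 lower beside 24.5%. The rRNAs gave -1.27 ± 0.14 for MT-RNR1 and -1.04 ± 0.09 for MT-RNR2. MT-ND3 gave 0.91 ± 0.22 and MT-CO3 0.77 ± 0.13.

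Because the rRNAs took up to 11.8% of counts, the heavy-strand mRNA share was also taken of counts without rRNA. It then averaged 4.65% at Coptidis low, 4.64% at Coptidis medium and 4.47% at Coptidis high, below the 6.77% to 7.63% of vehicle libraries. Nuclear RNAs that carry no poly(A) tail were followed beside them, since mitochondrial rRNAs carry short tails. Summed histone mRNA stood at 44.6 to 49.6 CPM in vehicle, 40.2 and 44.2 CPM in Coptidis low, 54.8 and 59.4 CPM in Coptidis medium and 102 and 113 CPM in Coptidis high libraries. Of 34 tested RNAs of this kind, Coptidis low had 0 higher, beside 17.1% of all genes, Coptidis medium 5 (14.7%), beside 26.1%, and Coptidis high 13 (38.2%), near the 34.5% of all genes. They had 2, 3 and 3 lower at these doses, beside 16.1%, 24.6% and 33%. The sum of RN7SL1 and RN7SL2, non-coding RNAs of the signal recognition particle, was 19.3 to 22.3 CPM in vehicle. It was 9.69 and 10.9 CPM in Coptidis low, 8.04 and 16.4 CPM in Coptidis medium and 11.6 and 18.8 CPM in Coptidis high libraries. This sum lay below every vehicle library at each Coptidis dose, and Zizyphi libraries of the same title set held 14.4 to 32.6 CPM. The histone sum lay below vehicle only at low dose, narrowly so in replicate 3 (44.2 against 44.6 CPM). The summed hepatocyte markers given above were low at Coptidis high. The part of these RNAs and markers in the result was not tested.

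Copies of mitochondrial genes in the nuclear genome can take reads from the members. MTATP6P1 (chr1:633696-634376, GRCh38) held 10.4% to 18.1% of the counts of MT-ATP6 in every library but that of Banhasasim-tang low, where it held 41.4%, with a median of 12.9% over all libraries. MTND2P28 held 1.97% to 5.32% of the counts of MT-ND2. MTCO1P12 held 0.167% of those of MT-CO1 in the Banhasasim-tang low library and 0.294% to 0.705% in the others. These 3 held 99.6% of the counts of 391 such copies, and the share was largest for MT-ATP6. Against vehicle, MTATP6P1 fell by 0.54 at Coptidis low, 0.36 at Coptidis medium and 0.38 at Coptidis high on the log2 scale, the same direction as MT-ATP6. MTND2P28 stood at 223 to 268 CPM in vehicle and at 155 and 143 CPM in Coptidis low libraries, where MT-ND2 did not pass. In Zizyphi low libraries MTND2P28 stood at 175 and 156 CPM. MTCO1P12 stood at 95.6 to 108 CPM in vehicle, 42.2 to 57 CPM in Coptidis and 51.4 to 70.9 CPM in Zizyphi libraries.

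In the 6 other extracts with replicates the members moved far less. Over 18 comparisons with vehicle, MT-CYB was called lower in 15, MT-RNR1 higher in 13, MT-CO1 lower in 11, and every other member in 4 or fewer. These comparisons share the vehicle libraries, and single libraries moved the counts. Without vehicle replicate 1, MT-CYB was called lower in 6 and MT-CO1 in 4, and without vehicle replicate 3 in 7 and 7. Without Bupleuri low replicate 3, which enters through the shared estimate of spread, MT-ND4L was called higher in 14 against 4, and MT-CO2 lower in 10 against 4. Calls outside the members rose without this library too. Nuclear subunits of the oxidative phosphorylation complexes called lower went from 2 to 14 at Zizyphi high and from 8 to 14 at Bupleuri high. Without vehicle replicate 2, MT-CO2 was called lower in 6 and MT-ND4 in 5. MT-RNR1 was called higher in 11 to 14 without any 1 of these libraries or vehicle replicate 2. Outside Coptidis and Banhasasim-tang, MT-RNR1 stood between 4166 and 8352 CPM. At high dose against vehicle it rose with Aconiti by 0.88 ± 0.08, with Yijung-tang by 0.79 ± 0.09, with Bupleuri by 0.73 ± 0.08, with Cimicifugae by 0.65 ± 0.08 and with Citri by 0.37 ± 0.08 in log2 units (adjusted p by edgeR = 4.2e-11, 9.1e-09, 7.7e-10, 6.8e-08 and 0.00202). Each of these calls held without any 1 library. With Zizyphi it did not pass, at 0.19 ± 0.09 (edgeR adjusted p = 0.246).

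**Figure D4:**
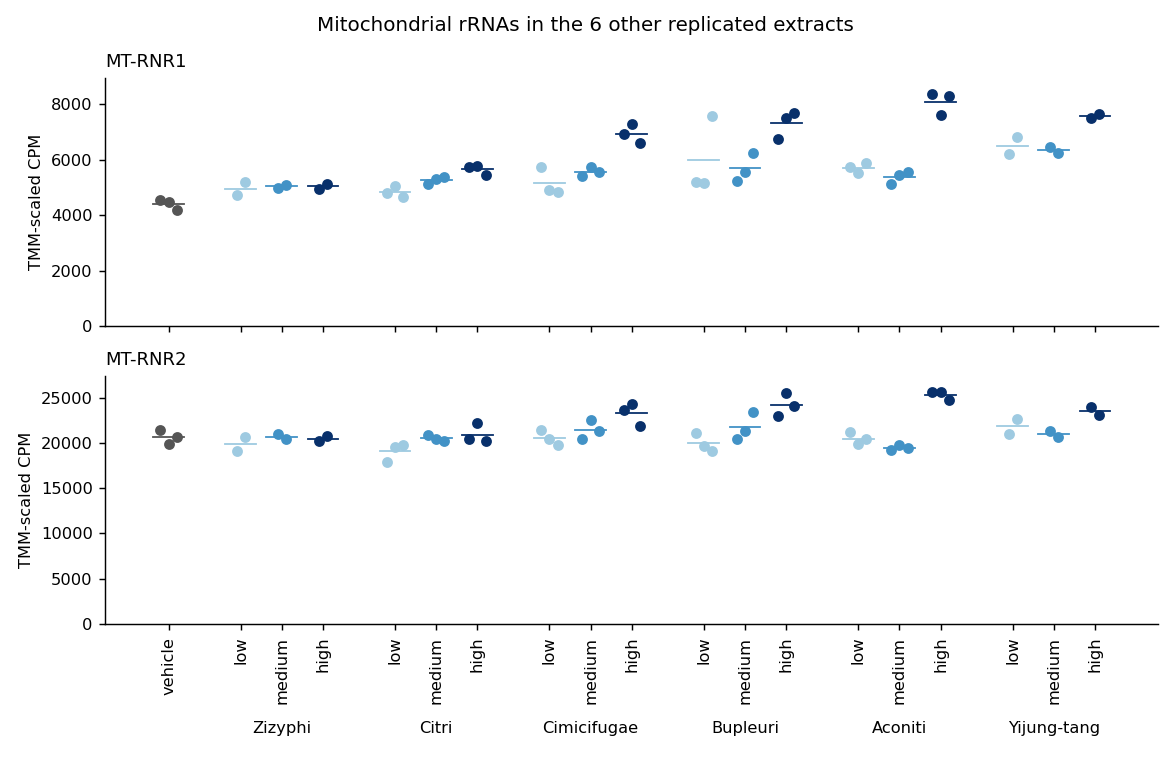
TMM-scaled CPM of MT-RNR1 (upper panel) and MT-RNR2 (lower panel) in vehicle and in 6 extracts with replicates other than Coptidis, by dose; points are libraries and lines are group means. MT-RNR1 is highest in the Aconiti high libraries, at 7592 to 8352 CPM, and the Bupleuri low library at 7551 CPM is replicate 3.

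Aconiti high libraries held 8352, 7592 and 8303 CPM of MT-RNR1, against 5739, 5503 and 5886 CPM in Aconiti low libraries and 4166 to 4533 CPM in vehicle. The high dose did not overlap either group. In Aconiti high against vehicle 5 members were called, beside 23.2% of all genes: MT-RNR1, MT-RNR2 at 0.29, MT-ND4L at 0.49, MT-CYB at -0.22 and MT-ATP8 at -0.60. MT-ND4L was lost without vehicle replicate 2 or 3 or Aconiti high replicate 2 or 3, MT-CYB without vehicle replicate 1 or 3 or Aconiti high replicate 3, and MT-ATP8 without vehicle replicate 2 or Aconiti high replicate 1. Aconiti low had 4 beside 9.89%, and Aconiti medium 4 beside 20.9%. Leaving out vehicle replicate 3 gave 2, 1 and 3 called members at low, medium and high dose, leaving out vehicle replicate 1 gave 2 at low and 2 at medium dose, leaving out Aconiti low replicate 1 gave 2 at low dose, and leaving out Aconiti high replicate 3 gave 3 at high dose. Aconiti high against low, inside 1 title set, had 2 called beside 14.6% of all genes: MT-RNR1 at 0.50 ± 0.08 (edgeR adjusted p = 1.3e-05) and MT-RNR2 at 0.31 ± 0.05 (edgeR adjusted p = 4.6e-05), both kept without any 1 library.

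Bupleuri high libraries held 6740, 7494 and 7661 CPM of MT-RNR1, against 5194, 5153 and 7551 CPM in Bupleuri low libraries. The last of these is the library that stands apart, and it overlapped the high dose. It also held MT-ND5 at 1974 CPM and a ratio of MT-RNR1 to MT-RNR2 of 0.396, against 0.246 and 0.262 in the other low libraries. Bupleuri low had 5 members called against vehicle beside 22.3% of all genes, Bupleuri medium 3 beside 10.9%, and Bupleuri high 6 beside 38.9%. Low dose had 3 without vehicle replicate 1 or vehicle replicate 3, and medium dose had 1 without vehicle replicate 1 or Bupleuri medium replicate 2.

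Bupleuri high against low had 6 of 15 members called, near the 40.2% of all genes called in either direction. All 6 were higher, where 3373 of all 16675 tested genes were called higher and 3338 lower. Without Bupleuri low replicate 3, 3 members were called. MT-RNR2 rose by 0.28 ± 0.05 (edgeR adjusted p = 5.4e-05) and kept its call without any 1 library. MT-RNR1 gave 0.29 ± 0.08 (edgeR adjusted p = 0.00422), 0.49 without Bupleuri low replicate 3, and did not pass without Bupleuri low replicate 1 (0.0568) or Bupleuri low replicate 2 (0.0752). MT-ND5 at 0.39 and MT-ND4L at 0.51 lost their calls without Bupleuri low replicate 3, at 0.14 and 0.19 (adjusted p = 0.197 and 0.182). MT-CYB at 0.20 and MT-ND4 at 0.24 lost theirs without Bupleuri low replicate 3 (0.124 and 0.149), Bupleuri low replicate 2 (0.0587 and 0.097), Bupleuri high replicate 1 (0.0896 and 0.0923) or Bupleuri high replicate 2 (0.0925 and 0.0908).

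Within that title set, Bupleuri high against Aconiti high (280 against 500 µg/mL) had 2 members called beside 32.6% of all genes, MT-CO1 and MT-CO3, both -0.22 on the log2 scale. Only 1 remained without Aconiti high replicate 1 or Aconiti high replicate 2, and 0 without Bupleuri high replicate 3. By edgeR, 0 members passed at low dose, beside 0.054% of all genes, and 0 at medium dose, beside 8.35%. At an unadjusted p under 0.05 they were 1 and 1, and DESeq2 called 0 at low and 1 at medium dose. Without Bupleuri medium replicate 1 or Bupleuri low replicate 3 the medium dose had 1, and without Bupleuri low replicate 1 the low dose had 2. The high-over-low effect of Bupleuri less that of Aconiti, added after the values were seen, had 0 members called by edgeR, 1 at an unadjusted p under 0.05 and 0 by DESeq2, beside 24.4% of all genes. It had 2 without Bupleuri low replicate 1 or Bupleuri low replicate 2 and 1 without Aconiti low replicate 3.

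Cimicifugae high libraries held 6918, 7269 and 6579 CPM of MT-RNR1, against 5715, 4907 and 4824 CPM in Cimicifugae low libraries. The groups did not overlap. Against vehicle 3 members were called at low dose beside 6.1% of all genes, 3 at medium dose beside 10.7% and 4 at high dose beside 22.2%. At medium dose 1 was called without vehicle replicate 1 or Cimicifugae medium replicate 1, and 5 without Bupleuri low replicate 3, which enters through the shared estimate of spread. At low dose 0 were called without vehicle replicate 1, vehicle replicate 3, Cimicifugae low replicate 2 or Cimicifugae low replicate 3, and 5 without Bupleuri low replicate 3. High against low had 2 called beside 7.14% of all genes, MT-RNR1 at 0.43 ± 0.08 (edgeR adjusted p = 3.3e-04) and MT-RNR2 at 0.18 ± 0.05 (edgeR adjusted p = 0.0337). MT-RNR2 lost its call without Cimicifugae high replicate 1 (0.124), Cimicifugae high replicate 2 (0.183), Cimicifugae low replicate 2 (0.105) or Cimicifugae low replicate 3 (0.177), which left 1.

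Citri had 3 members called against vehicle at low dose beside 15.9% of all genes, 3 at medium dose beside 10.5% and 2 at high dose beside 14.2%. MT-CYB was among them at every dose, at -0.36, -0.38 and -0.21 for low, medium and high. Only 1 was called at high dose without vehicle replicate 1, vehicle replicate 3 or any 1 Citri high library, and 5 without Bupleuri low replicate 3. At medium dose 1 was called without vehicle replicate 1 or Citri medium replicate 3, and 5 without Bupleuri low replicate 3. At low dose 1 was called without vehicle replicate 1, and 6 without Bupleuri low replicate 3. High against low had 0 called by edgeR, beside 0.78% of all genes, 6 at an unadjusted p under 0.05 and 0 by DESeq2. Without Bupleuri low replicate 3 it had 1.

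Citri and Cimicifugae were given at the same concentrations. Citri high against Cimicifugae high, both at 500 µg/mL, had 1 member called beside 4.07% of all genes: MT-RNR1 at 5736, 5758 and 5451 CPM in Citri high, against 6918, 7269 and 6579 CPM in Cimicifugae high libraries (log2 fold change -0.29 ± 0.08, edgeR adjusted p = 0.0329). The groups did not overlap. The call was lost without Citri high replicate 1 (0.0826), Citri high replicate 2 (0.0717), Citri high replicate 3 (0.152), Cimicifugae high replicate 1 (0.086) or Cimicifugae high replicate 2 (0.177), which left 0. At low and medium dose edgeR called 0, beside 0.006% and 0.06% of all genes, with 0 and 1 at an unadjusted p under 0.05 and 0 by DESeq2. The difference of the dose effects of Citri and Cimicifugae, added after the values were seen, had 0 called by edgeR, 0 at an unadjusted p under 0.05 and 0 by DESeq2, beside 1.33% of all genes.

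Yijung-tang high libraries held 7488 and 7651 CPM of MT-RNR1, against 6210 and 6798 CPM in Yijung-tang low libraries. Against vehicle 1 member, MT-RNR1, was called at low dose beside 1.69% of all genes, 4 at medium dose beside 6.25% and 5 at high dose beside 17.3%. At high dose 3 were called without vehicle replicate 1, vehicle replicate 3 or Yijung-tang high replicate 1, and 1 without Yijung-tang high replicate 2. At medium dose 2 were called without Yijung-tang medium replicate 1 and 1 without Yijung-tang medium replicate 2. The low dose call was lost without Yijung-tang low replicate 2 (adjusted p = 0.0528). High against low had 0 called by edgeR, beside 7.29% of all genes, 1 at an unadjusted p under 0.05 and 0 by DESeq2. It had 1 without Bupleuri low replicate 3.

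Zizyphi had 1 member called against vehicle at high dose beside 3.63% of all genes and 1 at medium dose beside 1.93%, MT-CYB at -0.36 and -0.30. The high dose call was lost without vehicle replicate 1 (adjusted p = 0.0687) or Zizyphi high replicate 2 (0.307). The medium dose call was lost without vehicle replicate 1 (0.186), vehicle replicate 3 (0.164), Zizyphi medium replicate 2 (0.162) or Zizyphi medium replicate 3 (0.414), and 2 members were called there without Bupleuri low replicate 3. At low dose edgeR called 0, beside 2.8% of all genes, with 3 at an unadjusted p under 0.05 and 1 by DESeq2. Without vehicle replicate 2 it had 1, and without Bupleuri low replicate 3 it had 2. High against low had 0 called by edgeR, 0 at an unadjusted p under 0.05 and 0 by DESeq2, beside 0.006% of all genes.

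MT-CYB, whose count of calls rested on vehicle replicates 1 and 3 as given above, stood below vehicle in the means of all 6 of these extracts at every dose, between -0.15 and -0.42 on the log2 scale. All these differences are with the vehicle of the separate title set. The ratio of MT-CYB to MT-CO3 counts was 0.449 to 0.678 in the libraries of these 6 extracts, the lowest being Bupleuri low replicate 3, against 0.642 to 0.733 in vehicle.

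Banhasasim-tang had 1 library per dose, so its values have no replicate check and no test. Its recipe, as background, combines several herbs, among them Coptis rhizome. Mitochondrial rRNA made up 0.485% of counts at low dose, 8.01% at medium dose and 11.8% at high dose, with exact Clopper-Pearson 95% intervals of 0.482% to 0.4885%, 8.004% to 8.024% and 11.76% to 11.78% that cover counting error only. The heavy-strand mRNAs made up 0.581% at low dose, 6.41% at medium dose and 5.16% at high dose. Both other Banhasasim-tang libraries were above the vehicle range for rRNA, and the low dose library was below every other library in both classes.

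At high dose MT-RNR1 stood at 40623 CPM in Banhasasim-tang, against 7488 and 7651 CPM in Yijung-tang of the same title set and concentration, a log2 ratio of 2.42. MT-RNR2 stood at 88130 CPM, against 24021 and 23046 CPM, a log2 ratio of 1.90. Along the genome, the log2 ratios to Yijung-tang high were 0.52 at MT-ND1, 0.19 at MT-ND2, -0.08 at MT-CO1 and -0.59 at MT-CO2. They were -0.87 at MT-ATP8, -0.35 at MT-ATP6, -0.65 at MT-CO3, -0.68 at MT-ND3, -1.04 at MT-ND4L and -0.81 at MT-ND4. Then came 0.29 at MT-ND5 and 0.33 at MT-CYB, with -0.07 at the light-strand MT-ND6. The medium dose gave 2.05 for MT-RNR1, 1.49 for MT-RNR2, 0.97 for MT-ND1 and MT-ND5, and -0.65 for MT-ND4L. Its lowest value was -0.85 for MT-ATP8. The ratio of MT-CYB to MT-CO3 counts was 1.20 at medium and 1.16 at high dose, against 0.559 to 0.606 in Yijung-tang libraries of those doses.

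**Figure D5:**
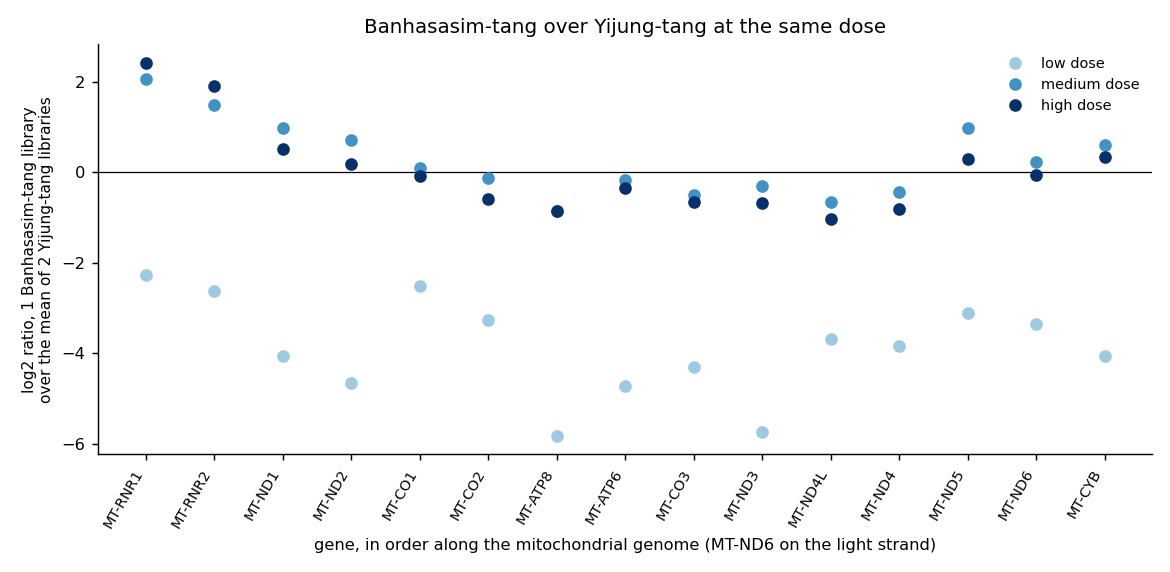
Log2 ratio of 1 Banhasasim-tang library over the mean of 2 Yijung-tang libraries at the same dose, for the 15 tested genes in their order along the genome; no error can be given. The high dose runs between 2.42 at MT-RNR1 and -1.04 at MT-ND4L, and every value of the low dose library lies below -2.

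The low dose library of Banhasasim-tang held 1344 CPM of MT-RNR1 and 3558 CPM of MT-RNR2. The median log2 ratio of the 12 heavy-strand mRNAs to Yijung-tang low was -4.06, with a range of -5.83 to -2.52, while the median over all tested genes was -0.06. At medium and high dose the median of the 12 was -0.15 and -0.47. The low dose library had the smallest total, 18015555 counts. Its nuclear copies of mitochondrial genes summed to 83.6 CPM and its nuclear OXPHOS subunits to 5262 CPM, against 828 and 851 CPM and 7539 and 7585 CPM in Yijung-tang low libraries. Of the nuclear genes described below, POLRMT stood at 334 CPM in this library, against 78.6 and 82.8 CPM in Yijung-tang low libraries. TFAM stood at 52.5 CPM, against 115 and 111 CPM, and LRPPRC at 488 CPM, against 572 and 580 CPM. The part of sample quality in this library was not tested.

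Nuclear genes that act on these RNAs were counted as a list of 30 transcription and RNA-processing factors, all of them tested. At Coptidis low 6 (20%) were higher and 11 (36.7%) lower than vehicle, beside 17.1% and 16.1% of all genes. At medium dose 9 (30%) were higher and 11 (36.7%) lower, beside 26.1% and 24.6%. At high dose 10 (33.3%) were higher and 13 (43.3%) lower, beside 34.5% and 33%, with a median log2 fold change of -0.14. The shares called higher were near those of all genes. SLIRP, a stem-loop RNA-binding partner of LRPPRC, fell by 1.00, FASTKD3 by 0.95 and PTCD2 by 0.86 at high dose in log2 units (adjusted p by edgeR = 4.2e-08, 3.8e-12 and 6.5e-11). FASTKD3 and PTCD2 are mitochondrial RNA-processing proteins.

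TFAM, the mitochondrial transcription factor that packages the genome, stood at 115 to 121 CPM in vehicle, 94.6 and 90.4 CPM in Coptidis low, 74.7 and 92.8 CPM in Coptidis medium and 83.5 and 84.1 CPM in Coptidis high libraries. No Coptidis library overlapped vehicle, and it fell by 0.35, 0.49 and 0.49 on the log2 scale. POLRMT, the mitochondrial RNA polymerase, stood at 60.4 to 68.1 CPM in vehicle, 92.4 and 116 CPM in Coptidis low, 115 and 92.2 CPM in Coptidis medium and 112 and 116 CPM in Coptidis high libraries, and rose by 0.71, 0.71 and 0.84. LRPPRC, which binds and stabilises mitochondrial mRNAs, was 0.13 higher at Coptidis low and 0.16 higher at Coptidis medium, and fell by 0.20 at Coptidis high. In Zizyphi libraries of the same title set, POLRMT stood at 79 to 88 CPM, above vehicle and below every Coptidis library. TFAM stood there at 106 to 114 CPM, above every Coptidis library. LRPPRC stood there at 557 to 593 CPM, below Coptidis low and medium and above Coptidis high libraries.

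POLRMT was also called higher against vehicle at high dose in the other 6 extracts with replicates, at 0.38 to 0.51 on the log2 scale. With Zizyphi this high dose call was lost without Zizyphi high replicate 2 (adjusted p = 0.0902) or Zizyphi high replicate 3 (0.0613). Every library of these 6 extracts, at low and medium dose too, held more POLRMT than the 60.4 to 68.1 CPM of vehicle. Group means of POLRMT were 80.7 to 85.9 CPM at low dose and 83.2 to 91.3 CPM at high dose. Vehicle forms a separate title set, and its part in these differences and in the Coptidis rise was not tested. TFAM fell at high dose with Bupleuri by 0.30, with Cimicifugae by 0.21 and with Aconiti by 0.15, the last call being lost without vehicle replicate 2 (adjusted p = 0.0521). LRPPRC was called higher with Yijung-tang at 0.15 and with no other of the 6. That call was lost without vehicle replicate 3 (0.15), Yijung-tang high replicate 1 (0.264) or Yijung-tang high replicate 2 (0.066), and without Bupleuri low replicate 3 LRPPRC passed with Aconiti as well, at -0.08 (0.0415).

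Of 72 tested nuclear subunits of the oxidative phosphorylation complexes, Coptidis low had 3 (4.17%) higher and 29 (40.3%) lower, beside 17.1% and 16.1% of all genes, with a median log2 fold change of -0.20. Coptidis medium had 1 (1.39%) higher and 39 (54.2%) lower, beside 26.1% and 24.6%, with a median of -0.28. Coptidis high had 3 (4.17%) higher and 54 (75%) lower, beside 34.5% and 33%, with a median of -0.46. NDUFB1 of complex I fell by 1.47, UQCRQ of complex III by 1.21 and ATP5MC1 of ATP synthase by 1.09 on the log2 scale at high dose. Inside the title set, 2 (2.78%) were higher and 30 (41.7%) lower in Coptidis high against Coptidis low, beside 30.9% and 29.3%. The median over all tested genes was -0.01, 0.01 and 0.00 against vehicle at low, medium and high dose. Leaving out any 1 library moved the counts of neither list by more than 1.5 times for Coptidis high against vehicle, and this was not run for the other Coptidis doses.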

How the data were processed

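Messenger RNA libraries of 60 HepG2 samples were sequenced as 100-base pairs, per the labels' protocols. The authors deposited RSEM expected counts per gene. The submitters' processing notes name RSEM 1.3.3, STAR 2.7.3a, Trim Galore 0.6.5 and GRCh38; the annotation release and strand setting are not given in the sources used here. In the table, 8.75% of values were not whole, and all were rounded before testing; 207 columns of other samples were not used. Symbols and coordinates come from GENCODE 29.

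Groups follow the sample labels. edgeR 4.0.16 (TMM scaling, robust quasi-likelihood fit, a filter on low counts by group) was fitted on 57 libraries in 22 groups, with Banhasasim-tang left out. It tested 16675 genes, with Benjamini-Hochberg adjustment within each of 40 comparisons, and adjusted p under 0.05 made a call. CPM per kilobase uses gene length. The fit was tested on simulated data. No label says that a replicate number marks a shared source. The alternatives tried were RLE scaling, scaling on nuclear genes, no filter, a replicate block, separate fits, DESeq2 1.42.0 and leaving out each library.

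All 15 tested members are named, with up to 3 list genes of largest change at the high dose. The members and lists were chosen with earlier results of these data known.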

Additional observations from a re-analysis of the deposited data

Results flagged for a closer look

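The effect of dose, high over low, differed between Coptidis (280 over 11.2 µg/mL) and Zizyphi (500 over 20 µg/mL) for 11 mitochondrial genes, by an interaction contrast in edgeR added after the values were seen (adjusted p under 0.05). The difference, Coptidis minus Zizyphi on the log2 scale, was -1.27 for MT-RNR1 and -1.04 for MT-RNR2. It was -0.54 for MT-ND1, -0.60 for MT-ND5 and -0.53 for MT-CYB, mRNAs outside the central run, where MT-ND2 did not pass at -0.36 (adjusted p = 0.0968). It was 0.38 for MT-CO2, 0.51 for MT-ATP6, 0.77 for MT-CO3, 0.91 for MT-ND3, 0.68 for MT-ND4 and 0.95 for MT-ND6. The calls of MT-RNR1, MT-RNR2, MT-CO3, MT-ND3, MT-ND4 and MT-CYB held without any 1 library. Those of MT-CO2, MT-ATP6 and MT-ND6 were lost without Coptidis low replicate 2, among others, that of MT-ND1 without Coptidis low replicate 3 or Zizyphi low replicate 2, and that of MT-ND5 without Zizyphi low replicate 2. The extracts share 1 title set, and their doses differ.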

How the results depend on the processing

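No mitochondrial gene reversed its direction as a called value under any alternative run, over 600 gene values per setting. Members called with Coptidis stayed within 1.5 times under each. RLE scaling moved the log2 fold changes of the tested members by -0.01 to 0.02, and nuclear scaling by -0.01 to 0.01. Without the filter on low counts, more members passed against vehicle: Zizyphi 7, 6 and 6 (low, medium and high), Citri 9, 8 and 8, Cimicifugae 9, 9 and 10, Bupleuri 10 at low and 8 at medium, Aconiti 10, 10 and 9, and Yijung-tang 6, 9 and 10. High against low then had 5 for Citri, 4 for Aconiti and 1 for Yijung-tang, Citri against Cimicifugae 1 at medium and 4 at high, Bupleuri against Aconiti 2, 1 and 5, and the added dose contrasts 1 and 5. Separate fits gave Zizyphi 2, 3 and 3, Citri 6, 5 and 4, Bupleuri 1, 0 and 3, Aconiti 8 at low and 7 at medium, Yijung-tang 7 at medium, 1 for Citri, 1 for Bupleuri, 4 for Aconiti and 1 for Yijung-tang in high against low, and 2 for Citri against Cimicifugae high. DESeq2 gave Zizyphi low 1, Citri 5, 5 and 4, and Bupleuri against Aconiti medium 1. Zizyphi medium had 0 under RLE and under nuclear scaling, and Citri high 1 under nuclear scaling. The cause was not tested, except that the filter and separate fits change which genes and libraries are used. The share of all genes called under these settings is not given beside these counts. They therefore show how member calls moved with the setting, and not whether members differed from other genes.

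The numbers were not taken to pair the samples. Deviations of samples with the same number in 1 title set correlated at -0.12 to 0.31, over 0.1 in 22 of 126 pairs, against 2 of 216 pairs with other numbers in 1 set. Where 3 pairs could be formed, every sample was closest to its own number in 4 of 10 comparisons within a set and in 0 of 12 with vehicle, a hint from the data only. With a replicate block Zizyphi medium had 0; with a replicate block within title set Zizyphi low had 1, Citri high 1 and the Bupleuri and Aconiti dose contrast 1. The block changed 7 of 600 gene calls, and the block within set 22.

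Leaving out 1 library gave called members between these limits, which are given without the share of all genes. Against vehicle they were Zizyphi low 0 to 2, medium 0 to 2 and high 0 to 1, Citri 1 to 6, 1 to 5 and 1 to 5, Cimicifugae low 0 to 5 and medium 1 to 5, Bupleuri low 3 to 5 and medium 1 to 3, Aconiti 2 to 6, 1 to 5 and 3 to 6, and Yijung-tang 0 to 1, 1 to 6 and 1 to 7. High against low gave Citri 0 to 1, Cimicifugae 1 to 2, Bupleuri 3 to 7 and Yijung-tang 0 to 1. Citri against Cimicifugae high gave 0 to 1, Bupleuri against Aconiti 0 to 2, 0 to 1 and 0 to 2 at low, medium and high, and their dose contrast 0 to 2.

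Taking shares without rRNA in the total moved the heavy-strand mRNA share to 4.65%, 4.64% and 4.47% with Coptidis low, medium and high, 6.71% with Zizyphi high, 7.13% with Citri high, 7.28% and 6.6% with Aconiti high and low, 7.07%, 6.34% and 6.6% with Yijung-tang, and 5.85% and 6.96% with Banhasasim-tang high and medium. Differences in tRNA were not detectable in these mRNA libraries.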
